A study of Mus musculus with 16 samples.

Results

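Cortical thymic epithelial cells (cTEC) and medullary thymic epithelial cells rich in MHC class II (mTEChi), both from wild-type mice, were compared gene by gene in 5 of the 16 RNA-seq libraries of a mouse study, 2 of cTEC and 3 of mTEChi. The libraries were chosen by their labelled population and genotype, and no measured value entered the choice. The cells had the genotype psmb11 +/+, and the strain is labelled C57BL/6-derived BAC for all 16 libraries. Per the labels' protocols, they were sorted as CD45-negative and EpCAM-positive, cTEC being Ly51-positive and UEA1-negative and medullary cells the reverse. High MHC class II in mTEChi is stated by the sample labels, and the staining listed names no antibody to it. The age is 6 to 8 weeks in the sample labels and 7 days in the extraction protocol, and the series counts 11 thymi where that protocol counts 14 mice. The number of animals behind each library is not given. The other 11 libraries hold wild-type mTEClo, the medullary cells labelled low in MHC class II, and all 3 populations from psmb11 -/- (knockout, KO) mice of the same labelled strain and age, and are used below where named.

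The thymic cortex is where developing T cells first assemble a receptor and are kept if it recognises self peptides on MHC molecules. There cTEC present those peptides with the help of proteases that other cells use little, among them the thymoproteasome with the beta5t subunit encoded by Psmb11. The medulla is where T cells that bind self too strongly are removed or diverted. Many mature medullary cells express Aire, a nuclear protein that lets them transcribe genes otherwise restricted to single peripheral tissues, and they carry costimulatory ligands and abundant MHC class II.

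The table held 23420 gene entries, of which 19634 passed the filter on low counts and were tested. Gene counts totalled 94959679 and 92178798 in the cTEC libraries and 85798496, 130128367 and 64753610 in the mTEChi libraries, so 3 counts stood for at most 0.0463 CPM. CPM, the usual unit of counts relative to the library total, are given after scaling by trimmed means (TMM). Across genes, log CPM correlated at r = 0.990 between the cTEC libraries and at 0.838 to 0.845 between populations, where genes are not independent replicates. Fitted alone, the cTEC libraries gave a biological coefficient of variation of 0.419 and the mTEChi libraries of 0.110, and the fit used 1 estimate for both, 0.191. Nothing in the labels says that libraries of a group come from separate animals or sorts, so the p-values measure the spread between these libraries. They and the SE rest on the shared estimate, which lies below that of the cTEC libraries alone and above that of the mTEChi libraries alone.

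The antigens that separate the populations in the sort, Ly51 and the ligands of UEA1, matched the labels by RNA, as a check and not a finding. Of 8 genes listed for the sort, with Epcam and MHC class II among them, 6 passed as higher in mTEChi. Of the others, Enpep passed as higher in cTEC and Ptprc, given below, did not pass. Enpep, which encodes Ly51, stood at 196 and 211 CPM in the cTEC libraries and 35.3, 33.7 and 36.5 CPM in the mTEChi libraries. Fut1 and Fut2, fucosyltransferases that build glycans which UEA1 binds, stood at 7.97 against 134 CPM and 9.22 against 36.0 CPM (means in cTEC and mTEChi). Psmb11 itself stood at 177 and 145 CPM in the cTEC libraries and 9.74, 12.3 and 8.90 CPM in the mTEChi libraries, and the groups lay far apart.

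The populations differed in most genes tested, and the difference was lopsided. At an adjusted p under 0.05 in edgeR's quasi-likelihood test, 6048 genes were higher in cTEC (30.8% of those tested) and 8548 in mTEChi (43.5%). Of these, 2516 were at least 2-fold higher in cTEC (12.8%) and 6944 at least 2-fold higher in mTEChi (35.4%), with group CPM that did not overlap. This is what "2-fold higher" means below, and each count within a gene list is to be read against those shares. Genes that passed the test in either sense are said to have passed. The median log2 fold change over all genes (cTEC minus mTEChi) was -0.24, and -0.42 when library totals replaced the TMM scaling, so fold changes near that size depend on the scaling.

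**Figure D1:**
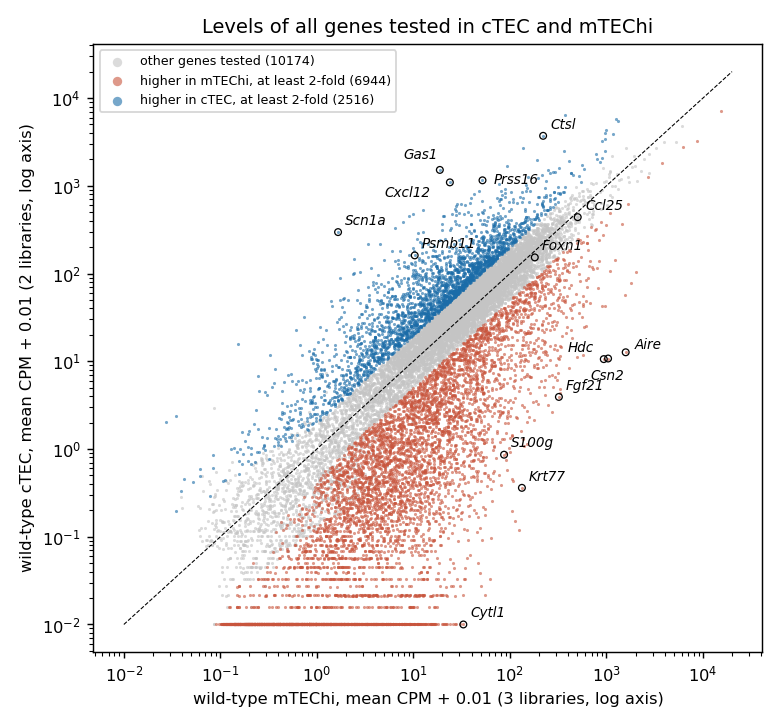
Mean CPM + 0.01 of each gene tested in wild-type mTEChi (x axis, 3 libraries) and wild-type cTEC (y axis, 2 libraries), both on log axes, with the 2516 genes 2-fold higher in cTEC in blue and the 6944 genes 2-fold higher in mTEChi in red. Red points reach the bottom edge, where cTEC had 0 counts, while few blue points lie near the left edge.

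The genes higher in cTEC were mostly shared and the genes higher in mTEChi were mostly near silence in cTEC. The median gene 2-fold higher in cTEC had 58.3 CPM there, and 6.68% of such genes lay under 1 CPM in mTEChi. The median gene 2-fold higher in mTEChi had 4.70 CPM there, and 66.9% of such genes lay under 1 CPM in cTEC. A total of 665 genes had 0 counts in both cTEC libraries and at least 1 CPM in each mTEChi library, while 0 genes showed the reverse. For the counts that follow, genes at 0 counts were set to the bound that 3 counts over the group allow, and genes at 1 to 3 counts to their count ratio. Here and below, that bound covers counting error only and not the spread between libraries. At least 8-fold higher were 303 genes in cTEC and 4647 in mTEChi, and at least 32-fold higher were 23 and 2232. Fewer cells that express a gene and less of its RNA in each cell cannot be told apart in such pooled RNA.

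Thinned to 64753610 counts each, the cTEC libraries held at least 1 count of 17256 and 16435 genes, and the mTEChi libraries of 20809, 20622 and 20904 genes. The groups did not overlap, and the means differed by 3933 genes. The two-sided exact permutation p was 0.2, which is the smallest that 2 libraries against 3 allow. At a minimum of 10 counts the difference was 3444 genes. Thinning equalises the counts and not the RNA molecules that entered each library, and the part of the latter was not tested.

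**Figure D2:**
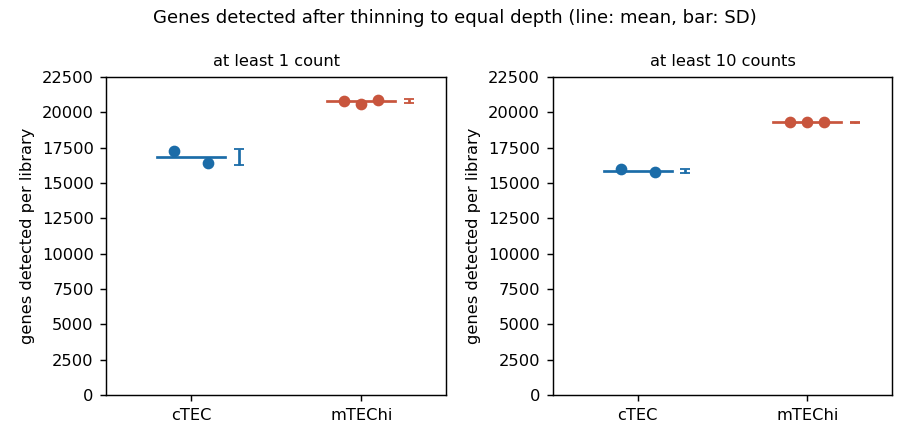
Genes detected per library after thinning to 64753610 counts, with at least 1 count (left) and at least 10 counts (right); points are libraries, horizontal lines group means and bars the SD. The cTEC libraries lie at 17256 and 16435 genes in the left panel and the mTEChi libraries between 20622 and 20904.

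Markers of other cell types were present and were not equal in the populations. Dendritic cell and macrophage markers were 2-fold higher in mTEChi in 12 of 15 cases, summing to 126 and 152 CPM in the cTEC libraries and to 666 to 695 CPM in the mTEChi libraries. Sirpa was 2-fold higher in cTEC. Lyz2 was at 15.5 and 46.4 against 436, 446 and 430.5 CPM and the macrophage receptor Csf1r at 2.41 and 2.91 against 31.0, 29.98 and 28.9 CPM. The plasmacytoid marker Siglech was at 0 in cTEC and at 0.559, 0.726 and 0.640 CPM in mTEChi. B cell markers were 2-fold higher in mTEChi in 5 of 6 cases and summed to 2.42 and 4.73 CPM in cTEC and to 39.4 to 41.5 CPM in mTEChi. The part of such cells in the differences of MHC class II, Ctss, Cd80, Cd86, Irf8, Ncf4, C1qb and the other genes higher in mTEChi given below was not tested. Thymocyte markers summed to 153 and 189 against 165 to 244 CPM, and 12 of 16 did not pass the test, with 2 higher in each population. Without cTEC 1 this was 7 higher in cTEC, without mTEChi 1 it was 6, and without cTEC 2 it was 5 higher in mTEChi. Cd3e was at 3.22 and 5.68 against 3.13, 2.08 and 1.95 CPM. Fibroblast and pericyte markers went both ways, 4 of 10 each, and summed to 1459 and 1147 against 645 to 663 CPM. Decorin (Dcn) and Col3a1 were higher in cTEC at 932 and 790.4 against 46.6, 51.5 and 44.3 CPM and 222 and 152 against 26.3, 31.1 and 30.7 CPM. The defining fibroblast marker Pdgfra was at 8.51 and 2.95 against 2.97, 3.35 and 2.67 CPM (adjusted p = 0.0931). The pericyte receptor Pdgfrb was higher in mTEChi at 7.43 and 1.85 against 65.1, 66.0 and 66.2 CPM. The part of such cells in the values of basement membrane genes, Fmod, Gas1, Cxcl12 and the other genes higher in cTEC below was not tested. Endothelial markers summed to 24.8 and 101 CPM in the cTEC libraries and to 79.9 to 111 CPM in mTEChi, with Pecam1 at 3.66 and 36.7 against 27.1, 17.2 and 16.4 CPM. Without cTEC 1, 6 of the 8 endothelial markers passed as higher in cTEC, and without cTEC 2, 6 passed as higher in mTEChi, where the 5 libraries together gave 2. Erythroid Alas2 was at 1.86 and 0.227 against 17.9, 17.6 and 16.1 CPM. The leukocyte antigen Ptprc, against which the cells were sorted, was at 28.05 and 34.6 against 26.8, 16.1 and 13.8 CPM (adjusted p = 0.0506). Xist and Y-linked genes both had counts in each library, in unequal parts. Ddx3y was at 46.7 and 100.2 against 30.9, 33.2 and 31.1 CPM, and Xist at 1599 and 707 against 1339, 1473 and 1269 CPM.

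Of 14 cortical markers 8 were 2-fold higher in cTEC, 2 more passed in that direction and 3 in the other, with a median log2 fold change of 2.08. The largest difference among them was that of Cxcl12, the chemokine that draws thymocyte precursors carrying CXCR4, at 1131 and 1055 CPM in the cTEC libraries and 29.3, 21.5 and 20.7 CPM in the mTEChi libraries (log2 fold change 5.52, SE 0.17, adjusted p = 1.07e-06). Prss16, a serine protease made in the thymic cortex, stood at 1291 and 1017 against 48.8, 56.4 and 50.7 CPM, in the same order (log2 fold change 4.47, SE 0.13, adjusted p = 9.07e-07). Psmb11 (mm10 chromosome 14, 54625310 to 54629556) differed by 3.96 (SE 0.16, adjusted p = 2.66e-06), and its 3 mTEChi libraries stayed above 0. Pax1, a regulator of pharyngeal pouch development, was at 732 and 683 against 79.8, 83.7 and 78.5 CPM (3.13, SE 0.07, adjusted p = 5.91e-07). Ly75, the endocytic receptor DEC-205, stood at 394 and 296 against 69.5, 81.6 and 73.8 CPM (2.20, SE 0.13, adjusted p = 1.42e-05).

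The marker names did not hold for each gene. Foxn1, the transcription factor on which all thymic epithelium depends, stood at 164 and 142 CPM in the cTEC libraries and 175, 177 and 191 CPM in the mTEChi libraries, a log2 fold change of -0.24 (adjusted p = 0.0384). That call was lost in 9 of 15 other settings, among them the fit of all 16 libraries, and the difference is of the size of the median of all genes. Ccl25, the chemokine that attracts thymocytes through CCR9, was at 483 and 394 against 506, 524 and 481 CPM (-0.20, adjusted p = 0.115), and the groups overlapped. The Notch ligand Dll4, which commits precursors to the T lineage, was lower in cTEC at 40.4 and 33.7 against 53.7, 59.1 and 60.9 CPM (-0.64, adjusted p = 0.00154). Tbata was lower as well (-0.44, adjusted p = 0.0219). In the fit of all 16 libraries, and without any 1 of the mTEChi libraries, 1 of these markers passed as higher in mTEChi in place of 3.

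**Figure D3:**
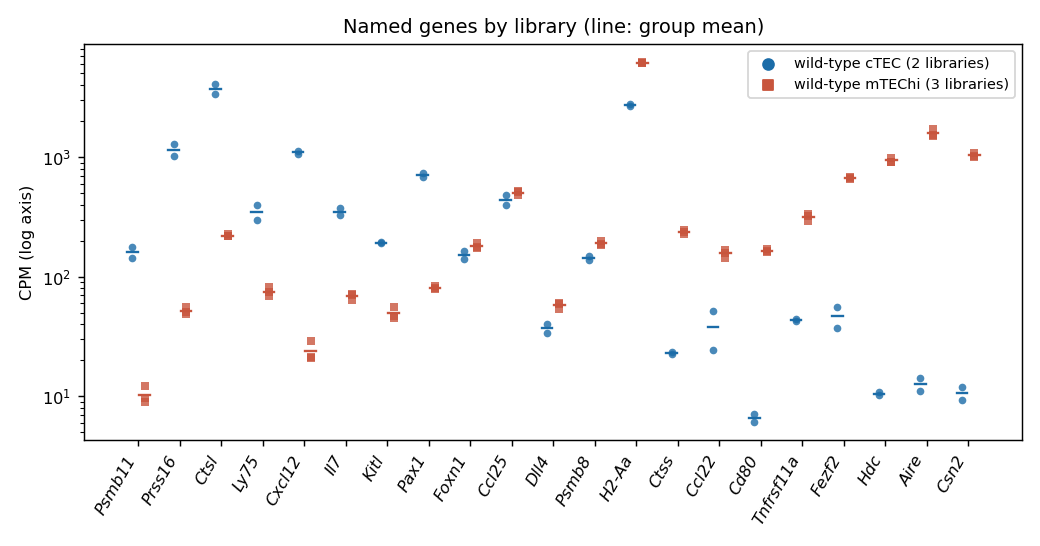
CPM on a log axis in each wild-type cTEC library (blue circles) and mTEChi library (red squares) for genes of the naming rule, with lines at the group means. Cortical genes at the left lie higher in cTEC, Foxn1, Ccl25 and Dll4 lie close together, and medullary genes at the right lie higher in mTEChi, up to Aire and Csn2.

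The bases before the start of 3 of these cortical genes are shown because they carry the letters GACGC, the core recognised by Foxn1. The sequences are the 250 bases upstream of the start in RefSeq (GRCm38.p6), 5′ to 3′ on the gene's strand, with GACGC or TATAA on either strand in capitals. The window of Psmb11 is chr14:54625060-54625309, plus strand, that of Cxcl12 chr6:117168285-117168534, plus strand and that of Pax1 chr2:147364744-147364993, plus strand.
Psmb11: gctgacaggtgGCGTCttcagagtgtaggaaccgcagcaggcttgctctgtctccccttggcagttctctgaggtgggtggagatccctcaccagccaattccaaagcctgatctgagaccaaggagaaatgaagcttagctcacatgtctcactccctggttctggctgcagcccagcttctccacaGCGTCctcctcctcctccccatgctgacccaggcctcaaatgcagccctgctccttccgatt
Cxcl12: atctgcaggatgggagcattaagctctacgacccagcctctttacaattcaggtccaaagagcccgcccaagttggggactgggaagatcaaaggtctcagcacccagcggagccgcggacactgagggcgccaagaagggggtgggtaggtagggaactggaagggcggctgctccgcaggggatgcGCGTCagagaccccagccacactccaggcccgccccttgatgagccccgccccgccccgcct
Pax1: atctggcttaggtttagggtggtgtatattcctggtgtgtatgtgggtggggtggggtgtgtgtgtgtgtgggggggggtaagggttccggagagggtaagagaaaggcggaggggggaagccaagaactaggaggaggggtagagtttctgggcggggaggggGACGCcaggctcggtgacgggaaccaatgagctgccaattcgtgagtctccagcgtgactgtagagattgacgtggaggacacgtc
Psmb11 holds 2 matches to GACGC, and Cxcl12 and Pax1 hold 1 each. Of 32851 upstream windows of the same length in the RefSeq table, 22.6% hold at least 1, so a match is a description of the letters and not a binding site. Shares were not compared between genes higher in cTEC and in mTEChi, because the promoter table covers 78.0% of the genes tested, under the 80% needed.

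Of 11 catalytic proteasome subunits and activators 8 passed as higher in mTEChi and 2, Psmb11 and Psmb9, as higher in cTEC. The 2 that were 2-fold higher in mTEChi were the activators Psme2 at 86.7 and 90.1 against 224, 225 and 217 CPM and Psme3 at 79.7 and 71.8 against 158, 161 and 158 CPM. Immunoproteasome subunits replace the constitutive ones in cells exposed to interferon. Of these, Psmb8 was at 137 and 149.8 against 183, 189 and 198 CPM (-0.41, adjusted p = 0.00232) and Psmb10 at 154 and 151 against 250.5, 242 and 262 CPM (-0.72). The third, Psmb9, went the other way at 175 and 188 against 87.9, 95.2 and 106 CPM (0.91, adjusted p = 0.000148), without overlap. Psmb5, whose place beta5t takes, was at 42.0 and 41.7 against 53.6, 53.9 and 55.8 CPM (-0.38, adjusted p = 0.00242), a call that was lost in the fit of all 16 libraries. Per length, by the authors' RPKM, the level of Psmb11 was 27.1 RPKM in cTEC and 1.92 RPKM in mTEChi, beside 33.2 RPKM in cTEC and 48.4 RPKM in mTEChi for Psmb5 and 85.5 RPKM in cTEC and 124 RPKM in mTEChi for Psmb8. Of 16 genes of the 20S core and its assembly 1 passed as higher in cTEC, 3 as higher in mTEChi and 12 did not pass, all under 2-fold. Higher in mTEChi were 9 by DESeq2 and 5 without the library cTEC 1. Psma6 had the smallest p, at 125 and 127 against 218, 232 and 217 CPM (-0.82, adjusted p = 5.3e-05).

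Endosomal proteases split between the populations: of 13, 3 were 2-fold higher in cTEC and 7 in mTEChi. Ctsl, the cathepsin that trims the MHC class II chaperone in the cortex, was at 4062 and 3357 CPM in the cTEC libraries and 218, 218 and 227 CPM in the mTEChi libraries (4.07, SE 0.10, adjusted p = 6.63e-07). Its counterpart in the medulla and in dendritic cells, Ctss, was at 22.6 and 23.4 against 244, 237 and 229.7 CPM (-3.36, SE 0.08, adjusted p = 5.91e-07). Per length, Ctsl stood at 1349.9 RPKM in cTEC and 89.2 RPKM in mTEChi and Ctss at 12.1 RPKM in cTEC and 138 RPKM in mTEChi. Cathepsin H (Ctsh) was at 31.0 and 43.4 against 352, 341 and 333 CPM and cathepsin Z (Ctsz) at 46.8 and 50.9 against 357, 343 and 382 CPM. The thiol reductase Ifi30, which unfolds antigens, was at 55.2 and 60.7 against 335, 305 and 341 CPM. The aspartic proteases were divided. Low in cTEC were Ctse at 0.781 and 0.873 against 9.42, 10.5 and 10.3 CPM and Napsa at 1.71 and 1.26 against 23.7, 21.5 and 23.2 CPM. Ctsd was higher in cTEC at 291 and 345 against 148, 143 and 165 CPM.

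Of 11 MHC class II genes 7 were 2-fold higher in mTEChi, which are labelled by that protein. The alpha chain gene H2-Aa was at 2679.7 and 2791 against 6156, 6070.5 and 6223 CPM (-1.17), and the invariant chain Cd74 differed by -1.12. H2-Eb2, a second beta chain gene of the E molecule, was at 106 and 108 against 1093, 1104 and 1034 CPM (-3.33, SE 0.08, adjusted p = 5.91e-07). H2-Oa and H2-Ob, which restrain the peptide editor H2-DM, were at 50.04 and 43.0 against 268, 274 and 292 CPM and 22.9 and 20.7 against 151, 176 and 171 CPM. H2-DMa, a chain of that editor, was higher in cTEC at 245 and 266 against 131, 132 and 144 CPM (0.91, adjusted p = 5.62e-05), whereas H2-DMb2 was higher in mTEChi (-1.33). Ciita, the master regulator of class II genes, stood at 285 and 212 against 466, 497 and 523 CPM (-0.99, adjusted p = 0.000565). Of 15 genes of class I presentation 5 passed as higher in cTEC and 9 as higher in mTEChi, all under 2-fold. Erap1, a peptidase that trims peptides for class I, was higher in cTEC at 227 and 193 against 127, 125 and 111 CPM (0.80). The chaperone Calr was higher in mTEChi at 1093 and 1189 against 2132, 1945 and 2081 CPM (-0.85).

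Chemokines were divided by population, with 4 of the 18 tested 2-fold higher in cTEC and 10 in mTEChi. Besides Cxcl12, cTEC were higher in the membrane-bound chemokine Cx3cl1 at 414 and 403 against 55.5, 50.1 and 57.0 CPM. Of the atypical receptors that remove chemokines, Ackr4 (Ccrl1 in the table) was at 378 and 388 against 8.19, 7.04 and 8.15 CPM (5.62, SE 0.09, adjusted p = 5.66e-07) and Ackr3 (Cxcr7) at 30.3 and 33.8 against 6.01, 4.87 and 7.24 CPM. Among those higher in mTEChi, Ccl19, a ligand of CCR7, was at 42.9 and 61.9 against 321, 307 and 327 CPM. The CCR4 ligands Ccl22 and Ccl17 were at 51.9 and 24.6 against 159, 168 and 144 CPM and at 1.05 and 0.839 against 10.8, 10.8 and 11.2 CPM. Cxcl9, a ligand of CXCR3, was at 12.6 and 14.8 against 298, 282 and 283 CPM. The cTEC libraries differed most from each other in Ccl22 of these 4, and both lay below each mTEChi library. Xcl1, which draws dendritic cells, was at 0.233 and 0.181 against 11.3, 6.60 and 6.48 CPM. Cxcl10, another ligand of CXCR3, was at 702 and 614 against 656, 699 and 773 CPM and did not pass the test (adjusted p = 0.356). The medullary chemokine genes Ccl21a and Ccl21b have near-identical copies and are listed with 0 counts in each of the 5 libraries, so their level cannot be read from these counts.

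Ligands for thymocytes went in both directions, with 8 of 18 2-fold higher in cTEC and 6 in mTEChi. Il7, the survival cytokine of early thymocytes, was at 372 and 325 CPM in the cTEC libraries and 71.0, 71.8 and 64.0 CPM in the mTEChi libraries (2.34, SE 0.09, adjusted p = 2.16e-06). Kitl, the ligand of Kit, stood at 189.8 and 195 against 47.2, 55.5 and 45.5 CPM (1.96, SE 0.10, adjusted p = 6.1e-06). The Notch ligands other than Dll4 were higher in cTEC. Dll1 was at 162 and 154 against 15.3, 17.4 and 17.3 CPM, Jag1 at 329.7 and 265 against 84.1, 97.4 and 93.3 CPM, and Jag2 at 678 and 586 against 37.1, 35.7 and 44.0 CPM. Wnt4, a Wnt ligand linked to Foxn1 expression, was at 377 and 329.9 against 66.4, 67.4 and 78.4 CPM, and the bone morphogenetic protein Bmp4 at 10.3 and 12.2 against 0.909, 0.726 and 0.923 CPM. The 6 factors 2-fold higher in mTEChi were cytokines and growth factors. Il15, which supports natural killer lineage cells, was at 25.0 and 21.0 against 53.2, 52.5 and 54.4 CPM, and Tslp, a cytokine that acts on dendritic cells, at 0.548 and 1.02 against 12.1, 11.0 and 8.37 CPM. Lif was at 5.74 and 6.41 against 22.7, 26.1 and 30.8 CPM and Tgfb2 at 18.1 and 21.5 against 71.7, 79.6 and 67.4 CPM. Of the insulin-like growth factors, Igf1 was at 58.0 and 53.2 against 181, 230.0 and 197 CPM and Igf2 at 4.94 and 5.03 against 47.3, 51.8 and 51.3 CPM.

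Regulators of thymus formation were higher in cTEC in 9 of 14 cases at 2-fold, and 1, Stat3, was 2-fold higher in mTEChi. Trp63, which maintains epithelial progenitors, was at 1011 and 1017 CPM in the cTEC libraries and 143, 155 and 139 CPM in the mTEChi libraries (2.80, SE 0.07, adjusted p = 7.71e-07). The homeobox genes Meis1 and Isl1 were at 230.2 and 209 against 29.3, 31.9 and 29.7 CPM and at 196 and 236 against 27.5, 25.0 and 26.1 CPM. Eya1 and Pax9, which act with Pax1 in the pharyngeal pouches, were at 259.9 and 269 against 64.5, 66.3 and 66.8 CPM and at 214 and 198 against 68.6, 71.2 and 78.7 CPM. Hoxa3, needed for the third pharyngeal pouch, stood at 38.2 and 34.7 against 2.03, 1.76 and 1.94 CPM (4.26, SE 0.13, adjusted p = 1.12e-06). Tbx1 did not pass the test, at 5.52 and 5.01 against 5.42, 5.599 and 4.99 CPM (adjusted p = 0.933). Hoxa3 lies in the longest run of neighbouring genes 2-fold higher in cTEC outside the protocadherins, 8 genes on chromosome 6 from 51859165 to 52218573 (mm10) that include Hoxa2, Hoxa4, Hoxa5 and Hoxa7. Hoxa2 stood at 22.4 and 30.6 against 2.27, 1.55 and 2.22 CPM. Hoxa5 and Hoxa7 were low in both populations, at 1.61 and 1.72 against 0.219, 0.323 and 0.566 CPM and at 0.676 and 0.748 against 0.153, 0.301 and 0.0893 CPM.

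Of 16 medullary markers tested, 14 were 2-fold higher in mTEChi, with a median log2 fold change of -3.65. The other 2 were 2-fold higher in cTEC. Aire (mm10 chromosome 10, 78030022 to 78043610) stood at 14.3 and 11.0 CPM in the cTEC libraries and 1530.1, 1509.7 and 1707 CPM in the mTEChi libraries (-6.97, SE 0.17, adjusted p = 6.43e-07). Fezf2, a second regulator of tissue-restricted genes, was at 56.1 and 37.2 against 668, 658 and 684 CPM (-3.84, SE 0.19, adjusted p = 5.99e-06). Hdc, which makes histamine, stood at 10.3 and 10.8 against 987, 911 and 916 CPM (-6.47, SE 0.10, adjusted p = 5.66e-07). The 2 exceptions were the keratins of basal epithelium often used to mark the medulla. Krt5 was at 3455 and 2988 against 833, 846 and 1047 CPM (1.83, SE 0.12, adjusted p = 2.43e-05) and its partner Krt14 at 636 and 611 against 273, 286 and 315 CPM (1.10, SE 0.08, adjusted p = 3.53e-05).

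The RANK, CD40 and lymphotoxin receptor pathways drive medullary cells through NF-kB, and 9 of 17 of their genes were 2-fold higher in mTEChi and 2 in cTEC. Tnfrsf11a, which encodes RANK, was at 44.1 and 42.6 CPM in the cTEC libraries and 292, 322 and 333 CPM in the mTEChi libraries (-2.86, SE 0.09, adjusted p = 1.1e-06), and Tnfrsf11b, its soluble decoy, at 12.8 and 12.5 against 239, 240.1 and 228 CPM (-4.22, SE 0.08, adjusted p = 5.66e-07). Cd40 was at 15.4 and 10.5 against 234, 222 and 232 CPM. Of the noncanonical arm, Relb was at 112 and 91.5 against 335, 333 and 364 CPM and Nfkb2 at 209.6 and 164 against 633, 632 and 668 CPM. Of the canonical arm, Nfkb1 was higher in cTEC at 539 and 526 against 241, 242 and 252 CPM (1.12, adjusted p = 9.85e-06). The lymphotoxin receptor Ltbr was higher in cTEC, at 140.3 and 125 against 46.0, 48.2 and 51.4 CPM (1.45, adjusted p = 1.09e-05).

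Of 16 costimulatory and coinhibitory ligands 8 were 2-fold higher in mTEChi and 2 in cTEC. Cd80 and Cd86, the ligands of CD28, stood at 6.07 and 7.07 against 170.2, 164 and 159.9 CPM and at 2.58 and 2.52 against 34.4, 43.3 and 36.2 CPM. The ICOS ligand Icosl was at 41.4 and 48.9 against 571, 554 and 602 CPM. The tumour necrosis factor family members Cd70 and Tnfsf9 were at 1.31 and 2.13 against 27.5, 31.9 and 39.6 CPM and at 1.28 and 1.88 against 34.5, 37.8 and 45.4 CPM. The 2 genes 2-fold higher in cTEC encode inhibitory ligands, and 4 genes of the list in all passed as higher in cTEC. Cd274 (PD-L1) was at 766 and 653 against 251, 261 and 275 CPM (1.43, adjusted p = 1.63e-05), and the galectin Lgals9 at 416 and 339 against 92.2, 91.2 and 101 CPM (1.998, adjusted p = 6.95e-06). The other PD-1 ligand, Pdcd1lg2, was at 41.0 and 44.6 against 54.8, 53.6 and 52.8 CPM (-0.33). Among 16 genes of Aire, Fezf2 and their partners 7 were 2-fold higher in mTEChi. The deacetylase Sirt1, which acts on Aire, was at 93.3 and 84.5 against 654, 693 and 577 CPM (-2.85, SE 0.11, adjusted p = 2.28e-06). The interferon regulatory factors Irf4 and Irf8 were at 15.6 and 11.6 against 164, 186 and 169 CPM and at 130.4 and 134 against 391, 413 and 432 CPM. Deaf1 was 2-fold higher in cTEC at 36.6 and 33.3 against 15.01, 14.7 and 16.2 CPM, and the Aire partners Prkdc and Top1 did not pass the test.

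Tissue-restricted antigen genes were the list furthest from 0. Of 34, 32 were 2-fold higher in mTEChi and 1 passed as higher in cTEC, with a median log2 fold change of -6.27, or -5.97 with genes at 0 counts set to their bound. The milk protein gene Csn2 was at 9.38 and 12.1 CPM in the cTEC libraries and 1087, 1028 and 1003 CPM in the mTEChi libraries (-6.60, SE 0.15, adjusted p = 5.91e-07). Per length, the level of Csn2 was 6.31 RPKM in cTEC and 687 RPKM in mTEChi, close in mTEChi to that of Aire (5.04 RPKM in cTEC and 682 RPKM in mTEChi). Gad1, an enzyme of neurons and islets, was at 0.326 and 0.306 against 52.3, 49.2 and 46.3 CPM, and the salivary gene Spt1 at 0.315 and 0.374 against 68.2, 67.0 and 55.4 CPM. The apolipoprotein gene Apoa4 of gut and liver stood at 7.66 and 2.54 against 195, 198 and 211 CPM. Ins2, one of the insulin genes, had 0 counts in both cTEC libraries and 8.15, 9.03 and 10.6 CPM in mTEChi, at least 538-fold higher. The pancreatic polypeptide gene Ppy and the casein gene Csn1s1 were also at 0 in cTEC, with 15.9, 15.2 and 17.6 CPM and 23.7, 18.6 and 21.8 CPM in mTEChi, at least 944-fold and 1239-fold higher. The myelin gene Mog was low in both populations at 0.0466 and 0.249 against 0.131, 0.154 and 0.268 CPM (adjusted p = 0.761), and Mbp was 2-fold higher in mTEChi at 48.7 and 47.6 against 129.9, 139.6 and 139.9 CPM.

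By size of fold the naming rule took 6 genes with 0 counts in cTEC: Cytl1, Mybpc3, Klk6, Retnla, Klk5 and Itih4. Cytl1, a secreted protein of cartilage and blood progenitors, stood at 31.8, 31.1 and 35.8 CPM in mTEChi, at least 1909-fold higher, and Mybpc3, a heart muscle protein, at 32.1, 30.9 and 27.9 CPM, at least 1759.8-fold higher. The other 4 stood between 18.7 and 27.9 CPM in the mTEChi libraries, and the lowest bound was that of Itih4, 1385-fold. By size of p it took S100g, a calcium-binding protein of gut, at 0.886 and 0.816 against 86.7, 87.0 and 87.0 CPM (-6.67, SE 0.10, adjusted p = 5.66e-07), and the keratin Krt77 at 0.373 and 0.329 against 126, 131 and 142 CPM (-8.56, SE 0.13, adjusted p = 5.66e-07). The histidine ammonia lyase Hal was at 3.36 and 3.3996 against 181, 166 and 178 CPM. The phagocyte oxidase subunit Ncf4 was at 3.44 and 3.49 against 108, 108 and 109.8 CPM, and the peptidoglycan recognition protein Pglyrp2 at 9.43 and 8.92 against 309.7, 286 and 304 CPM. Each of these had counts in both cTEC libraries, with no overlap.

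Genes of stratified, cornifying epithelium, which late medullary cells switch on, were 2-fold higher in mTEChi in 15 of 17 cases, with a median of -3.72. Krt10, a keratin of suprabasal epidermis, was at 15.02 and 14.6 against 215, 274 and 299 CPM. Loricrin (Lor), a major protein of the cornified envelope, was at 0.757 and 1.14 against 20.1, 29.4 and 31.6 CPM. The desmoglein Dsg1a was at 18.5 and 20.7 against 352, 354 and 339 CPM (-4.15, SE 0.09, adjusted p = 5.91e-07), and corneodesmosin (Cdsn) at 0.361 and 0.340 against 19.4, 15.997 and 19.8 CPM. Sprr1b had 1 count over both cTEC libraries and 18.7, 15.7 and 16.1 CPM in mTEChi, a ratio of 2909.9 (95% counting interval 522 to 114958). Krt6a, a keratin of stressed epidermis, was the 1 member 2-fold higher in cTEC, at 33.6 and 57.5 against 10.5, 9.55 and 18.3 CPM. The plakophilin Pkp1 of desmosomes was at 525 and 480.1 against 365, 416 and 449.8 CPM (0.29).

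Many of the genes higher in mTEChi lie side by side in the genome. Along the gene order of genes tested, the longest unbroken run of genes 2-fold higher in mTEChi held 52 genes on chromosome 3 from 90654302 to 93399442 (mm10), the cluster of S100, Sprr, Lce and filaggrin-type genes of the cornified envelope. The 4 with the highest CPM in mTEChi were Rptn, Sprr1a, S100a8 and S100a9. Rptn, a filaggrin relative, was at 34.9 and 36.5 against 474, 539 and 558 CPM, and Sprr1a at 13.2 and 17.1 against 155, 139 and 165 CPM. S100a8 was at 2.95 and 1.07 against 160.3, 156 and 132 CPM, and S100a9 at 3.92 and 0 against 94.0, 90.5 and 83.7 CPM. Lce1d, of the late cornified envelope, was at 0 in cTEC and at 1.37, 1.54 and 0.968 CPM in mTEChi. S100a8 and S100a9 are abundant in neutrophils as well. The upstream bases of 3 genes of this run are shown because each carries the letters TATAA, 27 to 30 bases before its RefSeq start. They are again 250 bases of GRCm38.p6, 5′ to 3′, in the same capitals. The window of S100a8 is chr3:90668821-90669070, plus strand, that of Lor chr3:92083143-92083392, minus strand and that of Sprr1b chr3:92438780-92439029, minus strand.
S100a8: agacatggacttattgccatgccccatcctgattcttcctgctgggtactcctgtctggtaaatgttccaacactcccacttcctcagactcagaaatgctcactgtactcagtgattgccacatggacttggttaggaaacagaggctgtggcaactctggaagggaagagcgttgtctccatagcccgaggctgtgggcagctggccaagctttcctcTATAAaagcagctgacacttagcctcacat
Lor: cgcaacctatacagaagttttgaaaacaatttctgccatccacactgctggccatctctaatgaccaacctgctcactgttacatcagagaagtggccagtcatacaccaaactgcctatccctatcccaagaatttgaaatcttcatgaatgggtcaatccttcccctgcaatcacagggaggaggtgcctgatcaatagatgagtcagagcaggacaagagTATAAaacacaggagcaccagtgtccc
Sprr1b: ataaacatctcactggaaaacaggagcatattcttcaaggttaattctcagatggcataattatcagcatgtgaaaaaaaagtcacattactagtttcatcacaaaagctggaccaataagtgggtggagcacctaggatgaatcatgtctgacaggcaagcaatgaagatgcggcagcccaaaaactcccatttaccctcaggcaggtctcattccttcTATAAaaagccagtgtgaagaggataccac
The same window holds TATAA on either strand in 22.8% of the 32851 promoters in the RefSeq table, and the 3 cortical genes printed above hold none. All 6 were picked after their values were seen.

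Next in length, a run held 25 genes on chromosome 5 from 86889770 to 88506049, with the Ugt2 and sulfotransferase genes of liver, the caseins and the enamel genes Amtn, Ambn and Enam. A run of 24 genes on chromosome 11 from 99233098 to 100041554 held keratin and keratin-associated genes. Another of 24 genes on chromosome 7 from 43769100 to 44220703 held kallikreins. In these, Amtn was at 27.7, 24.7 and 24.0 CPM in mTEChi with 3 counts over both cTEC libraries, and the kallikrein Klk7 at 62.3, 53.8 and 69.1 CPM against 0.0117 and 0.0340 CPM. Mast cell proteases and granzymes made up most of 18 genes on chromosome 14 from 55941451 to 56525031, with Mcpt1 at 11.0, 12.2 and 10.9 CPM in mTEChi. Genes of the prolactin family made up most of 16 genes on chromosome 13 from 25921035 to 28151595, where Prl was at 0.307, 0.396 and 0.268 CPM. Members of the Sprr2, Lce, Klk1b and prolactin families resemble each other closely, so the split of reads among them is uncertain. Runs this long were described and not tested against chance.

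**Figure D4:**
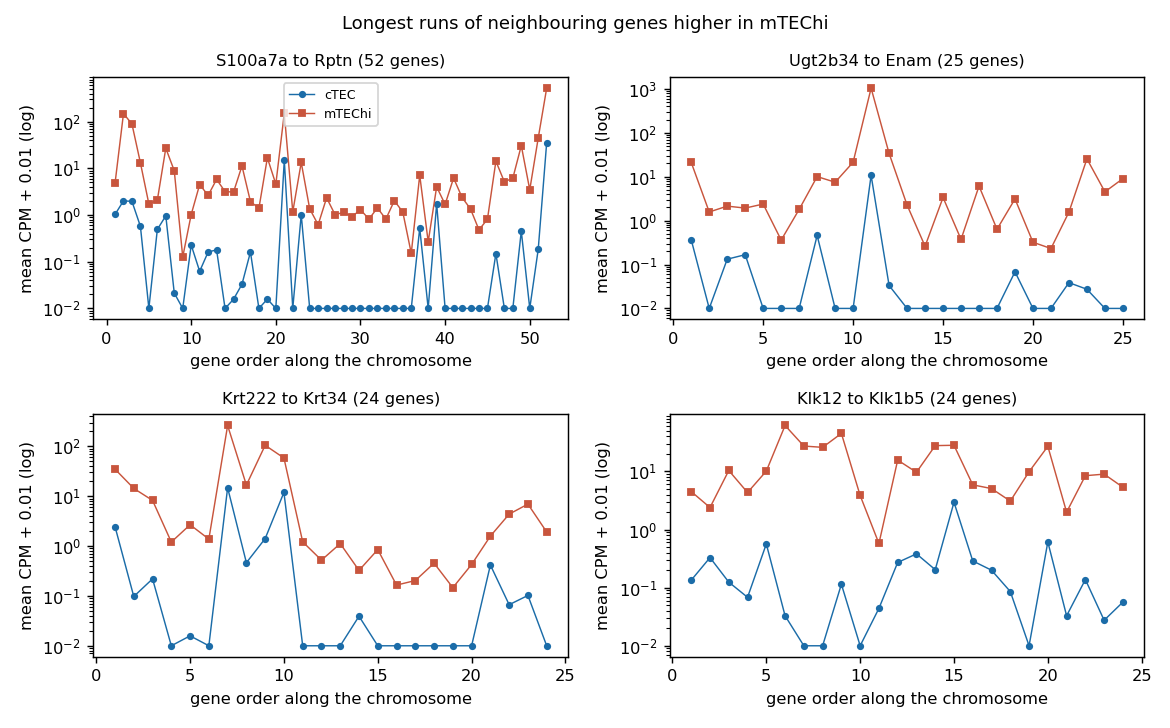
Mean CPM + 0.01 (log axes) of consecutive genes tested in the 4 longest runs of genes 2-fold higher in mTEChi, in cTEC (blue circles) and mTEChi (red squares); the x axis is the order of genes along the chromosome. The runs hold 52, 25, 24 and 24 genes, and many cTEC points lie at the floor of 0.01, which stands for 0 counts.

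Regulators of the mimetic medullary lineages, cells that take on the programme of a peripheral tissue, were 2-fold higher in mTEChi in 17 of 20 cases. Spib of microfold cells was at 49.0 and 46.3 against 498, 506 and 561 CPM (-3.45, SE 0.09, adjusted p = 7.8e-07), and Insm1 of endocrine cells at 12.4 and 9.61 against 302, 325 and 326 CPM (-4.86, SE 0.14, adjusted p = 8.97e-07). Foxj1 of ciliated cells was at 7.25 and 12.1 against 66.6, 64.8 and 75.1 CPM, and Hnf4g of gut at 8.51 and 7.34 against 43.3, 52.2 and 42.7 CPM. Foxi1 of ionocytes stood at 0.338 and 0.431 against 13.02, 13.4 and 14.5 CPM. Myod1 of muscle and Ptf1a of exocrine pancreas were at 0 in cTEC, with 2.59, 2.003 and 1.65 CPM and 3.51, 3.24 and 4.32 CPM in mTEChi. Trp73 was 2-fold higher in cTEC at 50.7 and 38.8 against 13.9, 10.5 and 12.0 CPM (1.88, adjusted p = 7.22e-05).

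Tuft cells are chemosensory cells of the medulla. Of 14 tuft cell genes 4 were 2-fold higher in mTEChi and 1 in cTEC, shares near those over all genes, and 8 did not pass the test. The cation channel Trpm5 was at 103 and 81.9 against 84.6, 83.1 and 120.2 CPM (adjusted p = 0.794), and the actin-binding Avil at 123 and 91.1 against 105, 103 and 152 CPM (adjusted p = 0.485). The tuft cell regulator Pou2f3 was higher in mTEChi at 25.0 and 21.8 against 51.5, 56.2 and 60.9 CPM (-1.27). The kinase Dclk1 was higher in cTEC at 155 and 148 against 70.2, 62.9 and 84.0 CPM (1.07). Without the library cTEC 1, 8 of the 14 passed as higher in mTEChi in place of 5.

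Among the genes higher in cTEC, the naming rule took by fold a channel, surface proteins and proteases. The sodium channel gene Scn1a stood at 302 and 291 CPM in the cTEC libraries and 1.97, 1.60 and 1.37 CPM in the mTEChi libraries (7.48, SE 0.14, adjusted p = 5.66e-07). Gas1, a surface protein that binds Hedgehog ligands, was at 1544 and 1488 against 19.0, 18.4 and 18.9 CPM (6.34, SE 0.07, adjusted p = 5.66e-07). The scavenger receptor Scarf2 was at 238 and 196 against 3.49, 2.76 and 3.78 CPM. Of 2 proteases, the metalloprotease Adamts19 was at 152 and 137 against 2.92, 1.92 and 2.49 CPM and the serine protease Prss23 at 106 and 73.2 against 2.13, 1.65 and 1.36 CPM. The collagen-binding proteoglycan Fmod was at 324 and 335 against 6.39, 6.65 and 6.05 CPM. By size of p the rule took, beside some of these, the TGF-beta receptor Tgfbr2 at 301 and 283 against 11.6, 11.6 and 10.7 CPM and the fibulin Efemp1 at 99.97 and 107 against 2.83, 2.86 and 2.65 CPM. The phospholipid transfer protein Pltp was at 840.1 and 780.4 against 43.0, 40.7 and 43.3 CPM. None of these was at 0 in a mTEChi library. Voltage-gated channels split, with 4 of 18 2-fold higher in cTEC and 10 in mTEChi. Among the sodium channels, Scn7a went with Scn1a at 308 and 318 against 22.6, 17.3 and 19.7 CPM. Scn3a of neurons was higher in mTEChi at 0.629 and 0.680 against 30.1, 32.3 and 30.7 CPM. Scn9a of sensory neurons was at 3.25 and 2.83 against 59.9, 61.4 and 52.8 CPM.

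Genes of the basement membrane and of its integrin receptors were 2-fold higher in cTEC in 15 of 23 cases and in mTEChi in 5. The laminin chain Lamb1 was at 941 and 791 against 78.8, 77.8 and 86.5 CPM (3.42, SE 0.10, adjusted p = 9.53e-07), and Lamb3, a chain of epithelial laminin, at 582 and 485 against 52.9, 52.3 and 56.1 CPM. The collagen Col18a1 stood at 763 and 643 against 78.4, 75.4 and 81.1 CPM. In the other direction, the integrin Itgb8 was at 5.70 and 6.09 against 64.4, 71.8 and 71.2 CPM. Of 20 junction genes 11 passed as higher in mTEChi, 10 of them 2-fold, and 8 as higher in cTEC, 4 of them 2-fold. The claudins of tight junctions were divided: Cldn4 was at 52.5 and 89.2 against 308, 349 and 439 CPM and Cldn7 at 17.8 and 26.9 against 148, 148 and 160.1 CPM, but Cldn1 at 245 and 250.4 against 76.2, 83.3 and 81.4 CPM. Occludin (Ocln) was at 8.54 and 11.4 against 51.4, 56.5 and 54.2 CPM, and tricellular Marveld2 at 8.43 and 9.25 against 72.7, 70.0 and 68.8 CPM. P-cadherin (Cdh3) was higher in cTEC at 297 and 289 against 41.6, 37.1 and 39.4 CPM. Of 9 simple and basal keratins 4 were 2-fold higher in cTEC, Krt5, Krt14, Krt7 and Krt19, and 1 in mTEChi, Krt20 of gut epithelium at 1.46 and 1.35 against 115, 98.8 and 102.2 CPM. Krt8, of all simple epithelium, was at 1217 and 1153 against 1367, 1379 and 1457 CPM (-0.24).

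Wnt, BMP and FGF genes were 2-fold higher in cTEC in 18 of 33 cases and in mTEChi in 5. The receptor of FGF7 and FGF10, Fgfr2, was at 626 and 587 CPM in the cTEC libraries and 36.4, 30.6 and 36.2 CPM in the mTEChi libraries (4.14, SE 0.10, adjusted p = 6.43e-07). The BMP receptor Bmpr1a was at 422 and 397 against 104, 106 and 97.9 CPM. The BMP target Id1 was at 110.2 and 117 against 12.7, 13.1 and 15.3 CPM, with Id2 and Id3 in the same direction (1.86 and 2.38). Follistatin (Fst), which binds activin, was at 147 and 214 against 6.45, 4.91 and 6.72 CPM. Among those higher in mTEChi were the secreted factors Fgf21 at 4.29 and 3.54 against 309, 306 and 349 CPM (-6.36, SE 0.14, adjusted p = 5.91e-07) and Wnt10b at 1.25 and 0.567 against 97.8, 103 and 103 CPM. Bmp2 was at 6.26 and 4.75 against 43.9, 52.2 and 47.8 CPM. Complement genes went both ways, 6 of 16 each, of which only the share higher in mTEChi was near that over all genes. The central component C3 was at 3762 and 3083 against 920.2, 959 and 1033 CPM. The protease C1ra was at 83.5 and 76.7 against 7.43, 6.11 and 6.95 CPM. Higher in mTEChi were Cfb of the alternative pathway at 7.24 and 11.7 against 87.2, 85.0 and 85.3 CPM and C1qb at 1.60 and 1.55 against 23.6, 22.1 and 23.7 CPM. Of 22 genes of axon guidance and neural adhesion 3 were 2-fold higher in cTEC and 7 in mTEChi, shares near those over all genes. Among the 7, Dscaml1 was at 12.2 and 13.8 against 183, 179 and 198 CPM.

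Interferon response genes were 2-fold higher in cTEC in 18 of 23 cases, with a median log2 fold change of 1.67. Ifit3, of an antiviral family that binds viral RNA, was at 507 and 477 CPM in the cTEC libraries and 30.3, 26.9 and 32.4 CPM in the mTEChi libraries (4.04, SE 0.10, adjusted p = 6.37e-07), and Ifi44 at 386 and 355 against 28.8, 27.8 and 27.1 CPM (3.73, SE 0.07, adjusted p = 5.66e-07). The RNA sensor Oas2 was at 110.1 and 121 against 12.4, 11.1 and 11.8 CPM. The transcription factor Irf7 was at 306 and 301 against 71.2, 71.9 and 77.9 CPM. Oasl1 was 2-fold higher in mTEChi at 16.2 and 21.1 against 65.2, 68.9 and 78.2 CPM, and Usp18, which restrains the pathway, was at 191 and 192 against 275, 291 and 291 CPM (-0.58). Immediate early genes, which respond to stimulation and to cell isolation within minutes, were 2-fold higher in cTEC in 13 of 18 cases, with a median of 1.52, and 1, Egr3, was 2-fold higher in mTEChi. The AP-1 subunit Fos stood at 5910.2 and 5593 against 1008, 1317 and 1421 CPM. Egr1 was at 4062 and 3853 against 842, 998 and 1080.1 CPM, and Atf3 at 1694 and 1479 against 256, 322 and 389 CPM. Of 14 heat shock genes 4 were 2-fold higher in cTEC, Hspa1a, Hspa1b, Dnajb1 and Bag3. The inducible chaperone Hspa1a was at 1463 and 1615 against 422, 640.4 and 689.6 CPM, and its partner Dnajb1 at 827 and 878 against 219, 299.6 and 331 CPM. The mitochondrial chaperonin Hspd1 was lower in cTEC (-0.55).

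Cell cycle genes were 2-fold higher in mTEChi in 19 of 26 cases, with a median of -1.76. Mki67 stood at 37.7 and 30.3 CPM in the cTEC libraries and 261, 263 and 235 CPM in the mTEChi libraries (-2.90, SE 0.12, adjusted p = 3.19e-06), and Top2a, the topoisomerase of dividing cells, at 14.1 and 19.0 against 161, 183 and 140.1 CPM. The mitotic kinase Cdk1 was at 3.47 and 5.85 against 46.8, 48.7 and 43.1 CPM, and the spindle checkpoint gene Bub1 at 0.874 and 1.303 against 27.9, 28.9 and 23.2 CPM. The D cyclins differed among themselves. Ccnd2 was higher in mTEChi at 137 and 144 against 489.8, 511 and 509 CPM and Ccnd3 higher in cTEC at 112 and 116 against 50.4, 49.4 and 49.1 CPM. Ccnd1 did not pass the test, at 94.1 and 93.9 against 99.7, 104 and 112 CPM (adjusted p = 0.0831). Of 18 unfolded protein response genes 5 were 2-fold higher in mTEChi, 3 passed as higher in cTEC under 2-fold and 6 did not pass. Among the 5 were the endoplasmic reticulum chaperone Hsp90b1 at 1215 and 1276 against 2799, 2732 and 2556 CPM and Sdf2l1 at 19.7 and 27.9 against 81.7, 76.6 and 87.6 CPM. Antioxidant genes went 4 to cTEC and 5 to mTEChi of 22, with Prdx6 at 220.3 and 244 against 76.9, 78.5 and 79.7 CPM and Srxn1 at 45.3 and 40.4 against 206, 206 and 204 CPM. Of 16 autophagy genes 2 were 2-fold higher in cTEC and 1 in mTEChi. Map1lc3b, which coats autophagosomes, was at 269 and 249.6 against 97.8, 92.8 and 100.5 CPM and the starting kinase Ulk1 at 173 and 141 against 51.7, 56.8 and 62.0 CPM. Wipi1, higher in mTEChi, was at 29.9 and 23.7 against 64.6, 59.6 and 65.5 CPM. Of 12 housekeeping genes 3 passed as higher in cTEC and 5 as higher in mTEChi (3 without the library mTEChi 1), all under 2-fold.

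**Figure D5:**
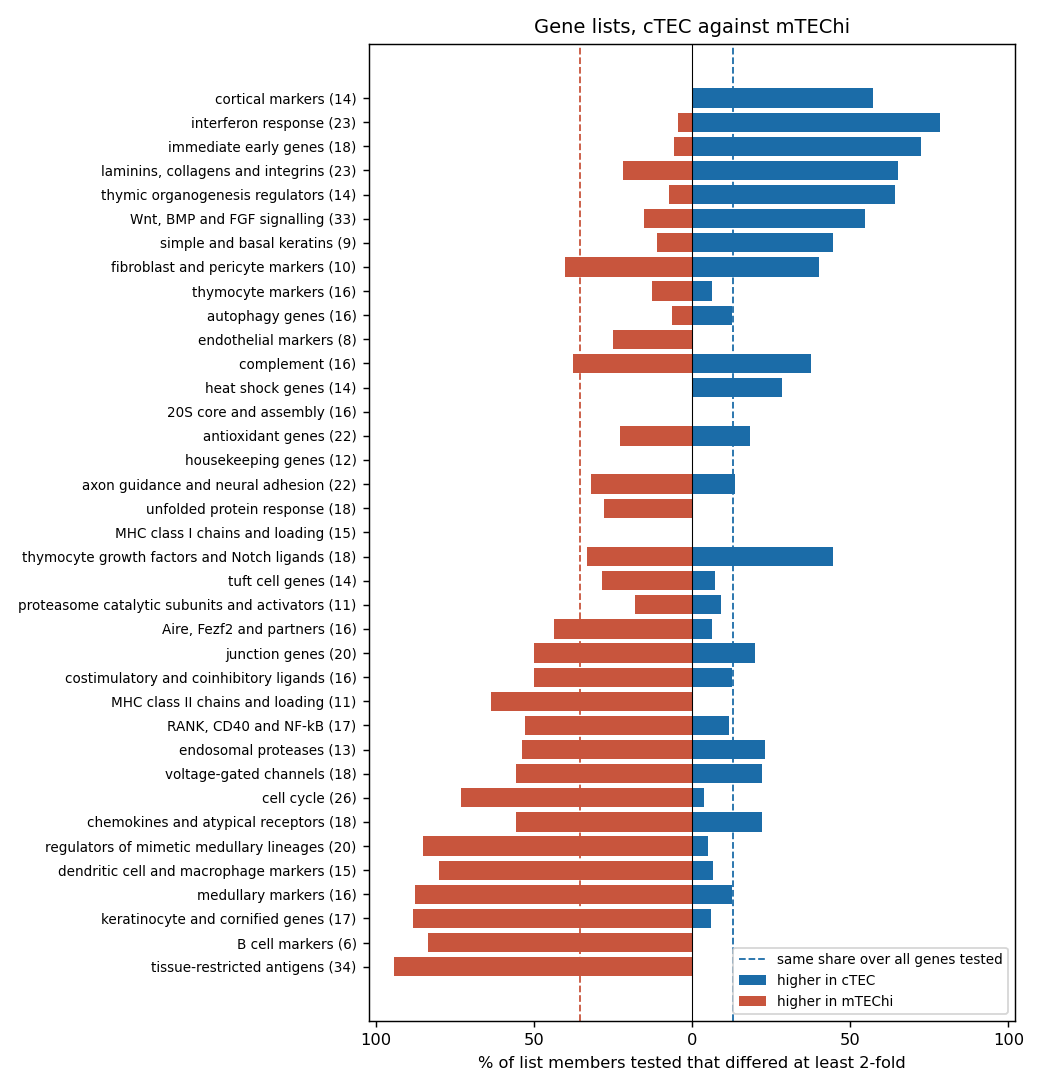
Share of each gene list's tested members (number in brackets) that was 2-fold higher in cTEC (blue, to the right) or mTEChi (red, to the left). Lists are ordered by median log2 fold change, and those of sort antigens, erythroid markers and sex-linked genes are left out. Dashed lines give the same shares over all genes tested, 12.8% and 35.4%. Interferon response and immediate early genes reach furthest to the right, and tissue-restricted antigens furthest to the left.

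The third wild-type population placed some of these groups, as levels with no test. In this paragraph CPM are scaled over all 16 libraries and given as means in cTEC (n = 2), mTEClo (n = 3) and mTEChi (n = 3), in that order. Aire was at 12.6, 12.6 and 1509.8 CPM and Csn2 at 10.7, 18.4 and 992 CPM, so mTEClo lay nearer to cTEC. Psmb11 was at 160.3, 9.62 and 9.84 CPM, with mTEClo close to mTEChi. Cxcl12 was at 1090.3, 189 and 22.8 CPM, with mTEClo between the others, and Ccl25 at 437, 30.8 and 481 CPM, with mTEClo below both. Egr1 was at 3947, 3681 and 929 CPM and Fosb at 4326, 3405 and 946 CPM, where mTEClo resembled cTEC, as they did for Ifit3 at 491, 360.0 and 28.5 CPM. Krt14 was highest in mTEClo at 622, 1999 and 278 CPM, and so was Trpm5 at 91.9, 613 and 91.6 CPM.

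The same contrast was made in the KO cells, 2 cTEC and 3 mTEChi libraries that share none with the wild-type contrast. Of the 2516 genes 2-fold higher in wild-type cTEC, 2509 were tested in KO and 2474 (98.6%) had the same sign. Of the 6944 2-fold higher in wild-type mTEChi, 6738 were tested and 6531 (96.9%) had the same sign. Both sets were chosen for large wild-type differences, and the same share over all genes tested was not computed. In KO the test was passed by 4021 genes higher in cTEC (20.7% of 19444 tested) and 5055 higher in mTEChi (26.0%), among them 2114 and 3767 of those genes. The calls in both directions, 9076, became 5908 without mTEChi KO 2. They rose when either cTEC KO library was left out, where the lone one left is assumed to vary like the mTEChi KO libraries. Cxcl12 differed by 4.87 (adjusted p = 0.000238) and Aire by -4.20 (adjusted p = 0.00289), beside 5.52 and -6.97 in wild type. A test of the difference between the genotypes passed for 1070 of 19990 genes (5.35%), and of the 1065 that were tested in both contrasts the KO difference was the smaller in 843. The p-values of that test rest on an estimate of spread shared by the cTEC and mTEChi libraries of both genotypes. They may be too small where the cTEC libraries vary more than that estimate. In the KO cTEC libraries, 8541 genes had 0 counts in cTEC KO 2 and 5757 in cTEC KO 1, and 30.4% of the reads of cTEC KO 1 lay in no gene. For Aire the difference between genotypes was -2.76 (adjusted p = 0.00683), with means of 77.7 and 1379.6 CPM in KO cTEC and mTEChi, scaled over all 16 libraries. For Cxcl12 it was 0.62 (adjusted p = 0.217), and for Foxn1 0.24 (adjusted p = 0.43).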

How the data were processed

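RNA-seq libraries of sorted mouse thymic epithelial cells were used, 5 for the comparison and 11 for its context. Per the labels' protocols, at least 10 ng of RNA entered the TruSeq v2 kit, which does not mark strand, so a gene and an antisense partner cannot be told apart. The authors deposited a table of raw read counts per gene symbol and, separately, RPKM values (with coordinates; per gene length and library total). The submitters' processing notes name HTSeq 0.5.4p1, CASAVA 1.8.2 and the build mm10 without their roles; the aligner and annotation are not given in the sources used here. The 5 entries that name no gene were dropped. Reads in no gene came to 20.8% to 23.7% of the 5 libraries and ambiguous reads to 0.547% to 0.643%.

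Counts were tested with edgeR 4.0.16 (R 4.3.3): TMM scaling, filterByExpr, a quasi-likelihood F test on the 5 libraries, and Benjamini-Hochberg adjustment over all genes tested. SE came from the F statistic. A 2-fold call needed an adjusted p under 0.05, a fold of at least 2 and group CPM without overlap. For genes at 0 counts in a group, the fold is a lower bound against 3 counts over that group. Intervals are at 95%, and both they and these bounds cover counting error only. RPKM were used as deposited to set genes beside each other per length. The script was tested on simulated data in which few genes changed, as many up as down. That setting is unlike the lopsided contrast here, so it does not check the scaling for such a contrast. Alternatives used DESeq2 1.42.0, limma 3.58.1 (voom), other scalings, filters and sets of libraries, a replicate block and each library left out in turn. The KO contrast was fitted alike, and the difference between genotypes in a fit of the 10 cTEC and mTEChi libraries.

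Genes were named by a rule: a fixed set of 30, the 6 largest folds and 6 smallest p-values in each direction among 2-fold calls of at least 5 CPM, and, from each list, the 4 members of smallest p. Other genes were named after their values were seen. Members and lists were chosen with earlier results of these data known. Promoter sequences are from RefSeq (GRCm38.p6), matched by symbol. Some genes are not reported here.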

Additional observations from a re-analysis of the deposited data

Results flagged for a closer look

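For 41 genes of the naming rule the cTEC to mTEChi difference passed a test of its difference between wild type and KO (edgeR, adjusted p under 0.05 over 19990 genes). The value given for each is the wild-type minus the KO log2 difference. The 2 cTEC KO libraries differed in genes at 0 counts (5757 and 8541), and its part in these values was not tested.

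Among genes higher in wild-type cTEC, the gap was wider in wild type for Kitl (0.77), Enpep (0.94), Scn1a (1.34), Ifi44 (0.67) and Ifit3 (0.80). The sort antigen Enpep was at 203 and 112 CPM in wild-type and KO cTEC, and at 33.6 and 35.5 CPM in mTEChi. These are means scaled over all 16 libraries.

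Among medullary genes, the gap was wider in wild type for Aire (-2.76), Cd80 (-1.84), Hdc (-2.36), Spib (-1.62), Icosl (-0.82), Irf4 (-1.17) and Insm1 (-2.13). The antigen presentation genes Ctss (-1.28), Ctsz (-0.70), H2-Eb2 (-0.62) and H2-Oa (-0.78) had the same sign. So did the tissue-restricted genes Csn2 (-2.63), Resp18 (-2.74), Spt1 (-3.43), S100g (-4.11), Krt20 (-3.12), Dsg1a (-1.53) and Fgf21 (-2.05). By means scaled alike, the levels differed between genotypes mainly in cTEC for Aire, Hdc and Csn2. In wild-type and KO cTEC, Aire was at 12.6 and 77.7 CPM, Hdc at 10.5 and 54.6 CPM and Csn2 at 10.7 and 74.3 CPM. In mTEChi they were at 1510 and 1380 CPM, 895 and 904 CPM, and 992 and 1110 CPM. 

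Tuft cell genes differed otherwise. Trpm5 (-1.67) had a log2 difference of -0.06 in wild type and 1.62 in KO, and Gng13 (-2.21) went from -1.11 to 1.09. Dclk1 (-0.90), higher in cTEC, had 1.07 in wild type and 1.96 in KO. Pou2f3 (-1.17) and Gnb3 (-1.64) were nearer to 0 in KO, at -0.10 and -0.24.

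Myeloid and B cell genes had negative values too, Ncf4 with -2.36, Mrc1 with -2.25, Fcer1g with -2.34, Ccl9 with -2.27 and Cd79b with -1.69. The remaining values were -0.81 for Marveld2, -1.97 for Dscaml1, -1.28 for Sema7a and -0.98 for Sema4a, and, with a positive sign, 0.65 for Nqo1 and 0.69 for Cldn12, each with the wider gap in wild type. For C1s (-0.60) and Hspd1 (0.80) the gap was wider in KO.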

How the results depend on the processing

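Of 176 named genes that passed the test, chosen in part for large folds and small p-values, 172 stayed past it in the same direction in 15 other settings and 0 reversed. Foxn1, Psmb5, Psmg4 and Eif2s3y lost the call in some. Voom with a variance for each population kept the direction and call of 2514 and 6891 of the genes 2-fold higher in cTEC and mTEChi. Leaving out a library each in turn gave 12695 to 15649 genes past the threshold, 2413 to 2586 2-fold higher in cTEC, 6168 to 7342 2-fold higher in mTEChi, and a difference of 3523 to 4344 in genes detected. Where a lone cTEC library was left, it is assumed to vary like the mTEChi libraries. The replicate numbers gave no sign of pairing (the deviations of same-numbered libraries correlated at -0.04 and -0.04 across genes). The deviations of 2 cTEC libraries mirror each other, so this check cannot exclude pairing. With the number as a replicate block, mTEChi 3 carries no information, 10182 genes passed, 5545 of them higher in mTEChi and 4581 2-fold so, in place of 8548 and 6944. Over all genes, 4422 of the 14596 calls were lost under the block. A minimum of 1 CPM in 2 libraries gave 5453 genes 2-fold higher in mTEChi, and centring on the median (chosen after seeing the data) gave 3370 and 6630. The KO calls, 9076, ranged from 5908 to 16074 with a library left out, and the cause was not tested. The planned comparison of promoter features was not run. At 0 counts in a library a gene may still lie at up to 3 counts, at most 0.0463 CPM, by counting error alone. The spread between libraries can be larger, as for S100a9, which was at 0 in only 1 of the cTEC libraries.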
